A study of Mus musculus with 8 samples.

Results

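The genes described here code for the constitutive proteasome. They were chosen by name, as the rows whose symbol begins with Psma, Psmb, Psmc, Psmd or Psme followed by a digit, without the immunoproteasome genes Psmb8, Psmb9 and Psmb10 and without pseudogenes. The rule took 42 of the 34745 genes measured. They code for the 20S alpha ring (8 genes), the 20S beta ring (8), the 19S ATPases (6), the 19S base subunits that are not ATPases (3), the 19S lid (8), chaperones of base assembly (3) and proteasome activators (5). The remaining gene, Psmc3ip, was taken by its letters only: its product is a meiotic recombination factor and no proteasome subunit.

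The proteasome degrades proteins marked with ubiquitin. Its 20S core is a barrel of stacked alpha and beta rings, with the cutting sites on the inner face of beta subunits. The 19S particle caps the barrel, binds ubiquitin, removes it and uses ATP to unfold and feed the substrate. Other caps, such as the PA28 activators, open the barrel without ATP, and in immune cells the cutting subunits can be exchanged for interferon-induced ones that change the peptides made.

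Bulk RNA was sequenced from cells sorted from the fetal liver of untreated wild-type B6 mice. All cells were live, lineage-negative, CD45+, CD127+ and CD25–. ILC1/3P cells (2 libraries) were Flt3–, α4β7+, PD-1– and CD94+, ILCP cells (3 libraries) were Flt3–, α4β7+, PD-1+ and CD94–, and CLP cells (3 libraries), the common lymphoid progenitors, were Flt3+. ILCP stands for the innate lymphoid cell progenitor, and ILC1/3P is the name the labels give to the CD94+ population. The cells went straight into lysis buffer, and their cDNA was amplified by PCR, with no molecular identifiers described. Separate animals, litters or sorts are not named for the libraries of a group, so each p-value is about the spread among these libraries, which could be technical. The labels carry a postnatal age that does not match the fetal tissue, and the same date for all libraries, so no batch could be compared.

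Of the 8 sort-marker genes listed, some followed the gates in the RNA and others did not. Flt3 had 0 CPM (counts scaled to library size) in both ILC1/3P libraries, 0 to 1.28 CPM in ILCP and 401 to 570.4 CPM in CLP. Klrd1, which codes for CD94, had 1184 and 1629 CPM in ILC1/3P, 43.4, 19.1 and 71.5 CPM in ILCP, and 50.3, 40.8 and 65.5 CPM in CLP. Pdcd1, which codes for PD-1, had 10.2 and 17.5 CPM in ILC1/3P, 107, 44.6 and 81.2 CPM in ILCP, and 0, 0 and 0 CPM in CLP, so the PD-1– gate still held some Pdcd1 RNA. Itga4, which codes for the α4 chain of α4β7, had 169 and 100.2 CPM in ILC1/3P, 419, 489.7 and 417 CPM in ILCP, and 302, 412 and 401 CPM in CLP, with a log2 fold change of -1.46 ± 0.29 (SE, adjusted p = 0.00360) in ILC1/3P against CLP although ILC1/3P cells were sorted as α4β7+. Itgb7, for the β7 chain, was higher in ILC1/3P against CLP, at 3.69 ± 0.79 (SE, adjusted p = 0.00545). Il7r, for CD127, had 215 and 214 CPM in ILC1/3P, 501, 461 and 490.5 CPM in ILCP, and 397, 526 and 379.9 CPM in CLP, with -1.02 ± 0.24 (SE, adjusted p = 0.00968) in ILC1/3P against CLP. Il2ra, for CD25, had 0.822 and 3.78 CPM in ILC1/3P, 6.26, 9.26 and 7.18 CPM in ILCP, and 0, 0 and 0 CPM in CLP, although all cells were sorted as CD25–. Total counts were 8082476 and 6310739 in ILC1/3P, 6043940 to 6905448 in ILCP and 4991939 to 7167619 in CLP. Erythroid genes summed to 8.83 to 28.4 CPM over all 8 libraries, with Hbb-y at 0 counts in each, and hepatocyte genes to 26.0 to 91.5 CPM. Myeloid genes summed to 46.3 to 70.6 CPM in ILC1/3P, 11.5 to 20.6 CPM in ILCP and 668 to 911 CPM in CLP, and B-lineage genes to 129 to 167, 151 to 186 and 2202 to 3089 CPM in the same order of populations. Mast cell and platelet genes summed to 197 to 261 CPM in ILC1/3P, 489 to 629.7 CPM in ILCP and 0.184 to 2.82 CPM in CLP. Nearly all of this was Cpa3, at 185 and 237 CPM in ILC1/3P and 481 to 627 CPM in ILCP. Of the others listed, Mcpt8 had 0 counts in all 8 libraries, and Pf4, Itga2b and Gzmb reached at most 4.49, 1.85 and 19.9 CPM. The part of these other genes in the results below was not tested. In bulk RNA, fewer cells of a type and less RNA per cell cannot be told apart.

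Of the 42 genes, 41 passed the filter on low counts. The exception was Psmb11, the thymus-specific beta subunit, with 0 counts in all 8 libraries. In ILC1/3P against CLP, 15 of the 41 rose and 2 fell, where over all 13436 genes tested 11.8% rose and 11.7% fell (edgeR, adjusted p under 0.05). The libraries did not overlap in 23 genes that were higher and 4 that were lower, where 23.3% and 29.1% of all genes did so. In ILC1/3P against ILCP, 14 rose and 2 fell, against 8.06% and 8.25% of all genes, and 20 were higher and 8 lower with no overlap, against 20.2% and 24.7%. The count that fell was 0 without ILC1/3P replicate 2, and 1 without ILC1/3P replicate 1 or ILCP replicate 1. Between ILCP and CLP 0 proteasome genes passed by edgeR, DESeq2 or limma, and 1 had an unadjusted p under 0.05 by edgeR, where 3.91% of all genes were called higher and 2.87% lower. The comparisons share libraries and so are not independent of each other.

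Most of the genes that rose belong to the 20S core. Of its 15 genes that were tested, 11 rose and 1 fell in ILC1/3P against CLP, with a median log2 fold change of 1.36, while of the 17 genes of the 19S particle 0 rose and 1 fell, with a median of -0.11 (6 had an unadjusted p under 0.05, and DESeq2 called 4 higher and 1 lower, beside 14.5% and 16.3% of all genes by DESeq2). The median of all genes tested was -0.25. The 19S counts hold only for the 17 genes that the rule took by name. Outside it, Shfm1, a small lid subunit, rose in ILC1/3P against both populations, and the ubiquitin receptor Adrm1 fell (both given below). Against ILCP, 10 core genes rose and 1 fell, with a median log2 fold change of 1.22, and of the 19S genes 0 rose and 1 fell, with a median of -0.39 beside -0.23 for all genes (3 had an unadjusted p under 0.05, and DESeq2 called 0 higher and 2 lower, beside 10.7% and 12.1% of all genes). Of the 5 activators 3 rose in both comparisons, and of the 3 base chaperones 1 rose. Scaled by library size alone, 11 of the 41 genes rose and 9 fell in ILC1/3P against CLP, where 7.04% of all genes rose and 20.9% fell with that scaling. Against ILCP 7 rose and 9 fell, where 3.53% and 15.9% of all genes did. The median of all genes shifted to -0.93 (-0.86 against ILCP), with 8 of the 19S genes lower in each comparison. The calls lost with that scaling were Psma1, Psmb4, Psmd10 and Psme1 against CLP, and Psma1, Psma3, Psma5, Psma7, Psmb6, Psmd10 and Psme1 against ILCP. Relative to the median of all genes, in ILC1/3P against CLP the 20S median lay at 1.61 on the log2 scale with either scaling, and the 19S median at 0.14 and, by library size alone, at 0.12. Against ILCP the 20S median lay at 1.46 and, by library size alone, at 1.45, and the 19S median below that of all genes, at -0.16 and -0.17. A change of scaling shifts all genes of a library alike, so these relative values could hardly move and do not test the result. With limma on log2(FPKM + 1), 10 of the 41 genes rose and 8 fell against CLP, beside 8.25% and 23.7% of all genes, and 9 rose and 9 fell against ILCP, beside 4.93% and 17.7%.

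**Figure D1:**
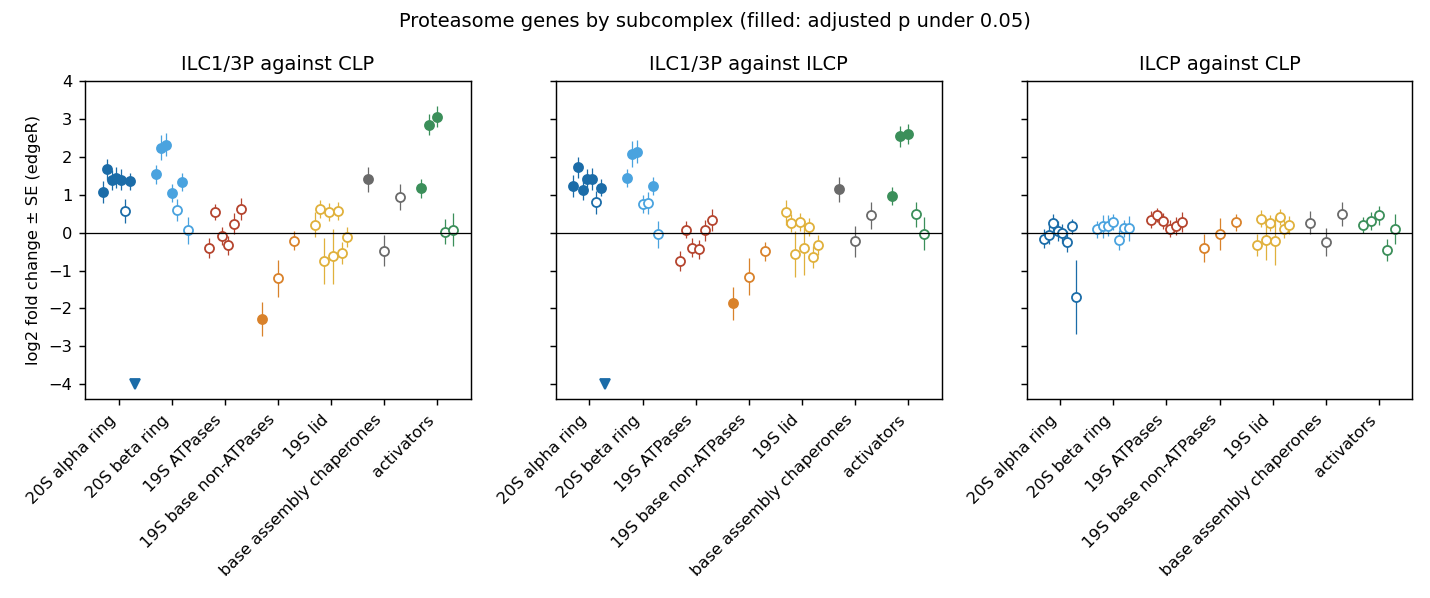
Each point is a proteasome gene, grouped by subcomplex on the x axis, with its log2 fold change and standard error on the y axis in ILC1/3P against CLP, ILC1/3P against ILCP and ILCP against CLP. Filled points passed an adjusted p of 0.05, and triangles mark Psma8, which had no counts in ILC1/3P and lies below the axis. Most 20S genes and 3 activators lie above 0 in the first 2 panels, the 19S genes lie around and below it (8 of them lower if scaled by library size alone), and no point is filled in the third panel.

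The alpha subunits form the outer rings of the barrel and its gate. Of the 8 genes, 6 rose in ILC1/3P against both other populations, and Psma8 fell. Psma2 had 3660.1 and 3257 CPM in ILC1/3P, 849, 1281 and 1002 CPM in ILCP, and 756, 1247 and 1246 CPM in CLP. Both ILC1/3P libraries lay above all others, and the log2 fold change was 1.68 ± 0.28 (SE, adjusted p = 0.00129) against CLP and 1.73 ± 0.28 (SE, adjusted p = 0.00229) against ILCP. Psma7 had 1319 and 1482 CPM in ILC1/3P, 613, 684 and 550.3 CPM in ILCP, and 489.6, 557 and 591 CPM in CLP, again with no overlap, and its log2 fold change was 1.36 ± 0.22 (SE, adjusted p = 0.00109) against CLP and 1.19 ± 0.22 (SE, adjusted p = 0.00439) against ILCP.

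Psma3 had 567 and 508 CPM in ILC1/3P, 221, 302 and 215 CPM in ILCP, and 179, 184 and 251 CPM in CLP. The ILC1/3P libraries were the highest, with log2 fold changes of 1.39 ± 0.26 (SE, adjusted p = 0.00236) against CLP and 1.13 ± 0.26 (SE, adjusted p = 0.0119) against ILCP. The ILCP call was lost without ILCP replicate 3 (adjusted p = 0.0544), by library size alone (0.154) and with limma (0.191), and the CLP call with limma (log2 fold change of 0.72, adjusted p = 0.0542). Psma4, whose yeast counterpart carries the tail that closes the gate, had 1082 and 1411 CPM in ILC1/3P, 405, 551 and 451 CPM in ILCP, and 317, 557 and 489 CPM in CLP, with log2 fold changes of 1.45 ± 0.28 (SE, adjusted p = 0.00309) against CLP and 1.41 ± 0.28 (SE, adjusted p = 0.00609) against ILCP. Psma1 and Psma5 rose by 1.08 and 1.40 on the log2 scale against CLP and by 1.24 and 1.42 against ILCP, and both passed in each comparison (adjusted p from 0.00391 to 0.0171). Psma1 lost its call in both comparisons without ILC1/3P replicate 1, and against ILCP also without ILCP replicate 1. Psma6 did not pass, at 0.56 ± 0.31 (SE, adjusted p = 0.216) against CLP and 0.80 ± 0.31 (SE, adjusted p = 0.109) against ILCP: its ILC1/3P replicate 1 had 649.7 CPM, within the range of the other libraries, and replicate 2 had 1316 CPM. Without replicate 1 its log2 fold changes were 0.98 against CLP and 1.22 against ILCP. Psma6 did pass against ILCP with DESeq2 (adjusted p = 0.0422) and in edgeR with no filter on low counts (0.0436).

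Psma8 codes for an alpha subunit that takes the place of Psma7 in the proteasome of developing sperm. It had 0 and 0 counts in ILC1/3P, 4, 55 and 41 counts in ILCP, and 114, 95 and 102 counts in CLP. Both ILC1/3P libraries were therefore below all others, and the 3 CLP libraries above all ILCP libraries. Against a floor of 3 counts over the group, Psma8 was at least 50.9-fold lower in ILC1/3P than in CLP (adjusted p = 0.00559) and at least 16.1-fold lower than in ILCP (adjusted p = 0.0204). Against ILCP the call was lost without either ILC1/3P library (highest adjusted p = 0.0755), in a fit of those 2 groups alone (adjusted p = 0.107) and with the replicate number as a block (adjusted p = 0.0612). Its level was low throughout, at 0.569 to 7.60 CPM in ILCP and 12.9 to 17.5 CPM in CLP, and its transcript is 75.16% identical to that of Psma7 over 761 aligned positions.

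The beta ring carries the cutting sites on Psmb6 (caspase-like), Psmb7 (trypsin-like) and Psmb5 (chymotrypsin-like), and the other beta subunits are structural. Of the 7 genes tested, 5 rose in ILC1/3P against CLP and 4 against ILCP, and the largest differences were in structural subunits. Psmb3 had 2408 and 3325 CPM in ILC1/3P, 526, 796 and 638 CPM in ILCP, and 381, 682 and 665 CPM in CLP. Its means were 2867 ± 648 CPM in ILC1/3P (SD, n = 2), 653 ± 136 CPM in ILCP (SD, n = 3) and 576 ± 169 CPM in CLP (SD, n = 3). The ILC1/3P libraries did not overlap the others, and the log2 fold change was 2.32 ± 0.31 (SE, adjusted p = 0.000280) against CLP and 2.13 ± 0.30 (SE, adjusted p = 0.00123) against ILCP.

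Psmb2 had 4042 and 5059.7 CPM in ILC1/3P, 843, 1403 and 998 CPM in ILCP, and 581, 1069 and 1244 CPM in CLP, with log2 fold changes of 2.24 ± 0.33 (SE, adjusted p = 0.000617) against CLP and 2.07 ± 0.33 (SE, adjusted p = 0.00222) against ILCP. Psmb1 had 2184 and 2460.4 CPM in ILC1/3P, 765, 961 and 830.3 CPM in ILCP, and 617, 879.6 and 903 CPM in CLP, with log2 fold changes of 1.54 ± 0.24 (SE, adjusted p = 0.000912) against CLP and 1.45 ± 0.24 (SE, adjusted p = 0.00268) against ILCP. Neither gene overlapped between ILC1/3P and the rest. Psmb4 rose by 1.04 ± 0.25 (SE, adjusted p = 0.00963) on the log2 scale against CLP, a call lost without ILC1/3P replicate 2, and its difference of 0.76 ± 0.25 (SE, adjusted p = 0.0565) against ILCP did not pass. DESeq2 called Psmb4 higher against ILCP (adjusted p = 0.0120).

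Of the 3 cutting subunits, 1 passed. Psmb6 had 1866 and 2211 CPM in ILC1/3P, 740.1, 1008 and 868 CPM in ILCP, and 658, 904 and 858 CPM in CLP, and both ILC1/3P libraries exceeded all others, with log2 fold changes of 1.34 ± 0.24 (SE, adjusted p = 0.00213) against CLP and 1.22 ± 0.24 (SE, adjusted p = 0.00599) against ILCP. Psmb5 had 178 and 296 CPM in ILC1/3P, 132, 112 and 167 CPM in ILCP, and 134, 158 and 173 CPM in CLP. By this TMM-scaled CPM the ILC1/3P libraries were the highest here too, replicate 1 only narrowly. The log2 fold changes of 0.61 ± 0.29 (SE, adjusted p = 0.154) against CLP and 0.79 ± 0.29 (SE, adjusted p = 0.0890) against ILCP did not pass. By the authors' FPKM Psmb5 overlapped, at 154 and 228 in ILC1/3P and 190, 198 and 216 in CLP. Psmb5 passed against ILCP with DESeq2 (0.88, adjusted p = 0.0393), with an offset for GC content chosen after the data were seen (1.03, adjusted p = 0.0315) and without ILC1/3P replicate 1 (1.11, adjusted p = 0.0361). Psmb7 had 105 and 191 CPM in ILC1/3P, 122, 149 and 186 CPM in ILCP, and 89.5, 176 and 158 CPM in CLP. Its ILC1/3P libraries spanned most of the range of the others, and the log2 fold changes were 0.07 ± 0.36 (SE, adjusted p = 0.920) against CLP and -0.05 ± 0.36 (SE, adjusted p = 0.965) against ILCP. By library size alone the log2 fold changes against CLP became -0.0786 for Psmb5 and -0.61 for Psmb7. Whether these 3 genes differed from each other in their response was not tested.

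**Figure D2:**
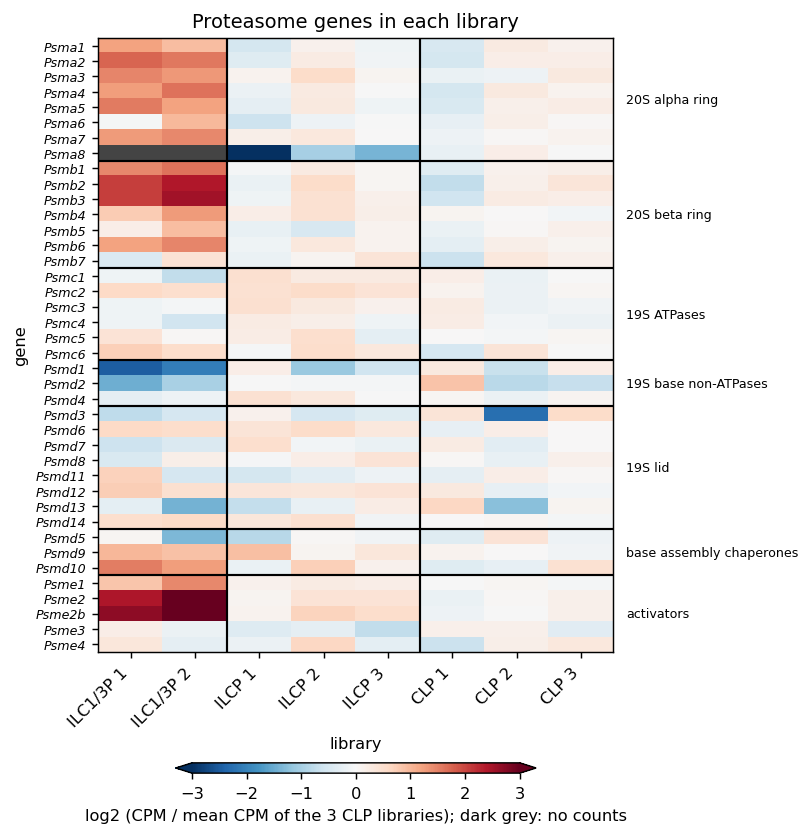
Rows are the proteasome genes with counts, by subcomplex, and columns the 8 libraries, with the colour giving log2 of CPM over the mean CPM of the 3 CLP libraries (red higher, blue lower, dark grey no counts, with values past 3 in either direction drawn at the end colour). Most 20S rows and Psme1, Psme2 and Psme2b are red in both ILC1/3P libraries, Psma8 has no counts there, Psmd1 is blue, and CLP 1 is bluer than CLP 2 and CLP 3 over most 20S rows.

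The 6 ATPases form the ring that unfolds substrates. None passed in any comparison: their log2 fold changes ran from -0.40 to 0.62 in ILC1/3P against CLP and from -0.74 to 0.33 against ILCP. Psmc2 and Psmc6 had the highest values against CLP, at 0.55 ± 0.22 (SE, adjusted p = 0.0901) and 0.62 ± 0.29 (SE, adjusted p = 0.145), and Psmc1 the lowest against ILCP, at -0.74 ± 0.26 (SE, adjusted p = 0.0773). The 8 lid genes, among them the deubiquitinase Psmd14, ran from -0.75 to 0.62 against CLP and from -0.64 to 0.53 against ILCP, with none called. With DESeq2, 4 of the 19S genes (Psmc2, Psmd6, Psmd12 and Psmd14) rose against CLP, so for these the call depends on the tool, as it does for Psmc1, which DESeq2 called lower against ILCP (adjusted p = 0.0384). By library size alone and with limma, Psmc1, Psmc4, Psmd7 and Psmd8 were called lower in both comparisons. Psmc3 was called lower in both by library size alone, and with limma against ILCP. Of all genes, 20.9% fell against CLP and 15.9% against ILCP by library size alone, and 23.7% and 17.7% with limma.

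Psmd1 and Psmd2, the large scaffold proteins of the base, and the ubiquitin receptor Psmd4 complete the particle. Psmd1 had 26.3 and 34.7 CPM in ILC1/3P, 169, 68.1 and 97.1 CPM in ILCP, and 179.8, 92.4 and 168 CPM in CLP. Its means were 30.5 ± 5.96 CPM in ILC1/3P (SD, n = 2), 111 ± 51.7 CPM in ILCP (SD, n = 3) and 147 ± 47.5 CPM in CLP (SD, n = 3). The ILC1/3P libraries lay below all others, and the log2 fold change was -2.27 ± 0.45 (SE, adjusted p = 0.00378) against CLP and -1.87 ± 0.44 (SE, adjusted p = 0.0149) against ILCP. Against CLP the adjusted p stayed between 0.00298 and 0.0339 when single libraries were left out. Leaving out either ILC1/3P library or ILCP replicate 1 ended the ILCP call (highest adjusted p = 0.0843). Exons of Psmd1 overlap 2 other annotated genes, Htr2b and Gm21972, so its count is uncertain without knowledge of the strand used.

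Psmd2 had 34.4 and 48.2 CPM in ILC1/3P, 94.4, 91.2 and 91.9 CPM in ILCP, and 173, 54.3 and 58.4 CPM in CLP. Its ILC1/3P libraries were also the lowest, while CLP replicate 1 stood far above the other CLP libraries, and the log2 fold change was -1.21 ± 0.49 (SE, adjusted p = 0.0967) against CLP and -1.17 ± 0.49 (SE, adjusted p = 0.133) against ILCP. It passed by library size alone, with limma and with no filter on low counts, in both comparisons. Psmd4 was at -0.21 ± 0.25 (SE, adjusted p = 0.586) against CLP and -0.49 ± 0.25 (SE, adjusted p = 0.224) against ILCP. It was called lower by library size alone (adjusted p = 0.0257 against CLP and 0.0134 against ILCP) and with limma (0.0392 and 0.0203).

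Promoters of 4 of these genes are shown because their transcripts moved differently: Psmb3, the 20S gene that rose most against CLP, the cutting subunit Psmb6, the lid gene Psmd12, which did not pass, and Psmd1, which fell. Each is 250 bases before to 50 bases after the RefSeq start in GRCm38.p6, on the plus strand, at chr11:97703184-97703483, chr11:70525107-70525406, chr11:107479278-107479577 and chr1:86064369-86064668. Capitals mark matches on either strand to the antioxidant response core TGACNNNGC, read by the proteasome gene activator Nfe2l1, to the ETS motif CCGGAAGT, and to CCAAT.
Psmb3: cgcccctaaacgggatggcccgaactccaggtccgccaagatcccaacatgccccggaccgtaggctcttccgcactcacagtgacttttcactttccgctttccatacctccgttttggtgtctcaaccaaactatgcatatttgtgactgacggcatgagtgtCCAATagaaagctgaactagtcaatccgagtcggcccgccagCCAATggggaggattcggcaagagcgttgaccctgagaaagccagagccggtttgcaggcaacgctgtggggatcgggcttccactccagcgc
Psmb6: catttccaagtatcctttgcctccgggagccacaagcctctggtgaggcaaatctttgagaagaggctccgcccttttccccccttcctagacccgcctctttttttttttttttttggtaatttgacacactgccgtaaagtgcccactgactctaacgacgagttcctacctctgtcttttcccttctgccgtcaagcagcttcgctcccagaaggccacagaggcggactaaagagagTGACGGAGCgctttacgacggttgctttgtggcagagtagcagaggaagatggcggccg
Psmd12: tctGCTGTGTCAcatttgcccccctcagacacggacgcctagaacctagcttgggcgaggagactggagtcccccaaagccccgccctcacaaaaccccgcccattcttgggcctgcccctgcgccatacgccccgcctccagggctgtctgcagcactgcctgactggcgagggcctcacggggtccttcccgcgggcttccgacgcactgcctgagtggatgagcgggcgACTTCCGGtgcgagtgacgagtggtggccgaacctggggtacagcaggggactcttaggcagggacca
Psmd1: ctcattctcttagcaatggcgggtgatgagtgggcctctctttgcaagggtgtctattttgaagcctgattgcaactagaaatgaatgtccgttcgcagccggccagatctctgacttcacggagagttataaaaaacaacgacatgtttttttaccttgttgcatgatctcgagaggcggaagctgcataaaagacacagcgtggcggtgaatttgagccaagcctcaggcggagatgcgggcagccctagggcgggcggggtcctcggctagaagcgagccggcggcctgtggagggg

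Psmb3 held CCAAT 85 and 43 bases before its start, Psmb6 held TGACGGAGC 9 bases before, and Psmd12 held GCTGTGTCA 247 and ACTTCCGG 18 bases before. No match to these letters was found in the Psmd1 window. RefSeq promoters were found for 35 of the 42 genes, 38 in all. The antioxidant core was in 6 of the 38 (15.79%), beside 12.39% of all 32851 promoters, and CCAAT in 14 (36.84%), beside 37.41%. The ETS motif was in 9 (23.68%), beside 3.89% of all promoters. By subcomplex it was in 3 of 6 ATPase promoters, 3 of 6 lid promoters, 2 of 6 activator promoters and 1 of 8 alpha promoters. It was in 0 of 5 beta promoters, 0 of 3 promoters of the other base genes and 0 of 3 of base chaperones, with 2 of the 9 belonging to the same gene, Psmc2. No overlap between the motifs was scored, and a match is a description of the letters only.

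The balance of core and cap within a library does not depend on how libraries are scaled. The summed FPKM (the authors' fragments scaled to gene length and library size) of the 20S genes over that of the 19S genes was 7.26 and 8.53 in ILC1/3P, 2.03, 2.73 and 2.49 in ILCP, and 2.02, 3.32 and 3.19 in CLP. Both ILC1/3P ratios lay above all others, and the ILCP and CLP ratios overlapped. With principal transcript lengths in place of the authors' lengths the ratios were 6.81 and 8.64 in ILC1/3P, 1.99, 2.73 and 2.52 in ILCP, and 1.92, 3.29 and 3.06 in CLP. Summed over the 20S genes the level was 21058 and 24102 CPM in ILC1/3P, 6626, 9309.7 and 7767 CPM in ILCP, and 5744, 8663 and 8656 CPM in CLP. Summed over the 19S genes it was 4679.6 and 4340.4 CPM in ILC1/3P, 4923, 5037 and 4642 CPM in ILCP, and 4447, 3939 and 4211 CPM in CLP. Unlike the ratio, these sums depend on the scaling. In summed FPKM the 19S genes were lowest in ILC1/3P, at 1300 and 1094, beside 1942 to 2130 in ILCP and 1621 to 1970 in CLP. The 20S genes stayed highest there, at 9445 and 9340 FPKM, beside 3972 to 5491 in the other libraries. All proteasome genes together took 2.25% and 2.29% of the counts in ILC1/3P, 1.49% to 1.69% in ILCP and 1.40% to 1.56% in CLP.

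**Figure D3:**
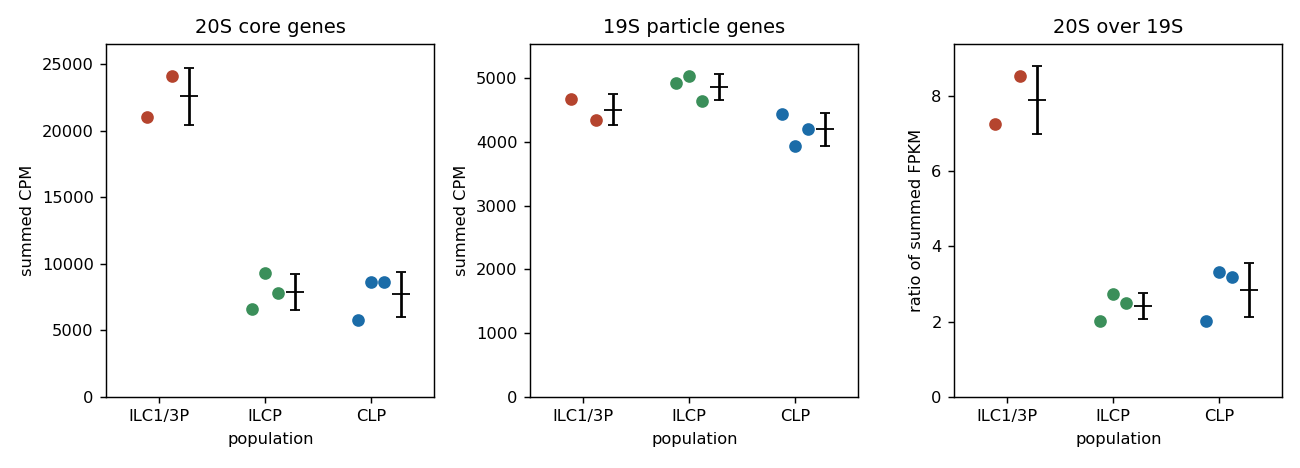
Points are libraries and the bars beside them the mean and SD of each population, for the summed CPM of the 20S genes, the summed CPM of the 19S genes and the ratio of their summed FPKM. The 20S sums of ILC1/3P (21058 and 24102 CPM) stand above all others, the 19S sums overlap between ILC1/3P and CLP, and the ratios of ILC1/3P (7.26 and 8.53) stand above those of ILCP and CLP (2.02 to 3.32). In summed FPKM, which is not drawn, the 19S sums of ILC1/3P lie below all others.

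Within CLP, replicate 1 had the lowest value for 14 of the 15 core genes and the highest for 9 of the 17 19S genes. Within ILCP, replicate 1 was lowest for 11 of the 15. The share of mitochondrial counts was also lowest in these libraries, at 2.71% in ILCP replicate 1 and 2.70% in CLP replicate 1, beside 4.91% and 5.39% in ILC1/3P, and its part in the result was not tested. Without CLP replicate 1 the 17 calls against CLP all remained, Psmd12 was added, and the 20S median was 1.22.

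Transcript length moved with the difference over all genes. In ILC1/3P against CLP, the 1388 genes with a principal transcript under 1000 bases had a median log2 fold change of 1.01, and 34.7% of them rose, while the 3037 genes of 2000 to 2999 bases had a median of -0.69, and 6.98% rose. The 20S genes are short, with median lengths of 1220 bases in the alpha ring and 1029.5 in the beta ring, and the 19S genes longer, with medians of 1613.5, 2961 and 1742.5 bases in the ATPases, the other base genes and the lid. Among the genes under 1000 bases, 5 20S genes had a median of 1.36, beside the 1.01 of all genes, and there were 0 19S genes. In the class of 1000 to 1499 bases, 6 20S genes had a median of 1.06, 4 19S genes 0.01 and all genes 0.31. With an offset for length fitted over all genes, an alternative chosen after the data were seen, the 20S median was 0.82, the 19S median 0.06 and the median of all genes 0, and all 17 calls against CLP remained, with Psmc2, Psmc6, Psmd12 and Psmd9 added. Against ILCP the 20S median was 1.07 with this offset, and 15 of 16 calls remained, without Psme1. Of all genes, 12.6% rose and 8.66% fell against CLP with this offset, and 7.86% and 5.44% against ILCP. The difference between the 20S and 19S medians was 1.47 against CLP without the offset and 0.75 with it.

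**Figure D4:**
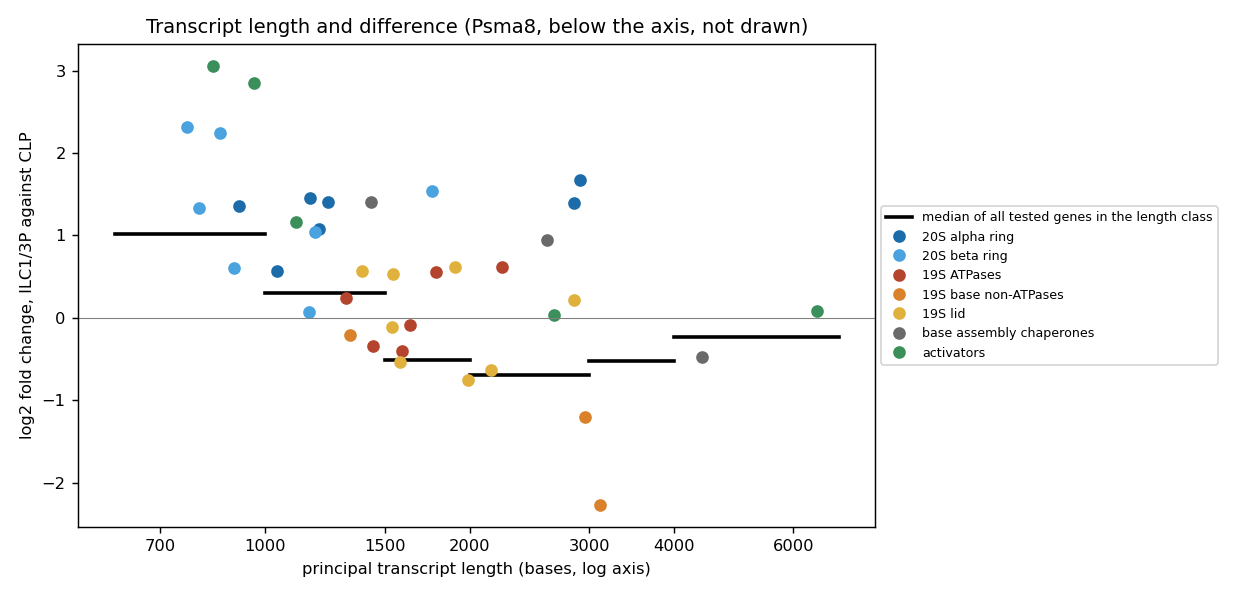
Points are proteasome genes tested, coloured by subcomplex, with principal transcript length in bases on the x axis (log scale) and the log2 fold change in ILC1/3P against CLP on the y axis, and black lines are the medians of all genes tested in 6 length classes, the outer ones open-ended. Short genes are higher as a whole (median 1.01 under 1000 bases), and Psma2, Psma3 and Psmb1 stand above the line of their class.

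The activators open the barrel in place of the 19S cap. Psme1 and Psme2 code for PA28 alpha and beta, which assemble together and are induced by interferon gamma, Psme3 for the nuclear PA28 gamma and Psme4 for PA200. The first pair and the copy Psme2b rose in ILC1/3P, and the other two did not pass. Psme1 had 408 and 620.5 CPM in ILC1/3P, 251, 272 and 264 CPM in ILCP, and 229, 240.1 and 218 CPM in CLP, with both ILC1/3P libraries the highest and log2 fold changes of 1.17 ± 0.24 (SE, adjusted p = 0.00448) against CLP and 0.97 ± 0.24 (SE, adjusted p = 0.0175) against ILCP. By library size alone Psme1 did not pass in either comparison (log2 fold changes of 0.47 and 0.32), and against ILCP its call was lost without ILC1/3P replicate 2, ILCP replicate 1 or ILCP replicate 3, with adjusted p up to 0.129.

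Psme2 had 935 and 1587 CPM in ILC1/3P, 186, 233 and 230.5 CPM in ILCP, and 152, 178 and 194 CPM in CLP. The ILC1/3P libraries did not overlap the others, and the log2 fold change was 2.85 ± 0.27 (SE, adjusted p = 4.28e-05) against CLP and 2.54 ± 0.27 (SE, adjusted p = 0.000293) against ILCP. Psme2b had 1654 and 2642 CPM in ILC1/3P, 276, 410.4 and 374 CPM in ILCP, and 233, 256 and 285 CPM in CLP, with log2 fold changes of 3.06 ± 0.28 (SE, adjusted p = 3.00e-05) against CLP and 2.60 ± 0.27 (SE, adjusted p = 0.000286) against ILCP. The transcripts of Psme2 and Psme2b are 99.37% identical over 794 aligned positions, so how their reads were divided is uncertain. Together they had 2588 and 4228 CPM in ILC1/3P, 462, 643 and 605 CPM in ILCP, and 385, 434 and 479 CPM in CLP.

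Psme3 had 77.0 and 59.3 CPM in ILC1/3P, 50.8, 55.3 and 40.1 CPM in ILCP, and 74.0, 73.8 and 52.5 CPM in CLP. Its ILC1/3P libraries overlapped the CLP range and lay above the ILCP range, with log2 fold changes of 0.03 ± 0.33 (SE, adjusted p = 0.967) against CLP and 0.48 ± 0.33 (SE, adjusted p = 0.353) against ILCP. Psme4 had 55.8 and 36.4 CPM in ILC1/3P, 38.4, 66.7 and 35.6 CPM in ILCP, and 27.8, 49.1 and 54.3 CPM in CLP. All 3 populations overlapped, with log2 fold changes of 0.08 ± 0.44 (SE, adjusted p = 0.923) against CLP and -0.02 ± 0.44 (SE, adjusted p = 0.994) against ILCP. The 95% interval of the Psme3 difference against CLP ran from -0.70 to 0.76 on the log2 scale, so differences within that range remain compatible with these libraries.

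**Figure D5:**
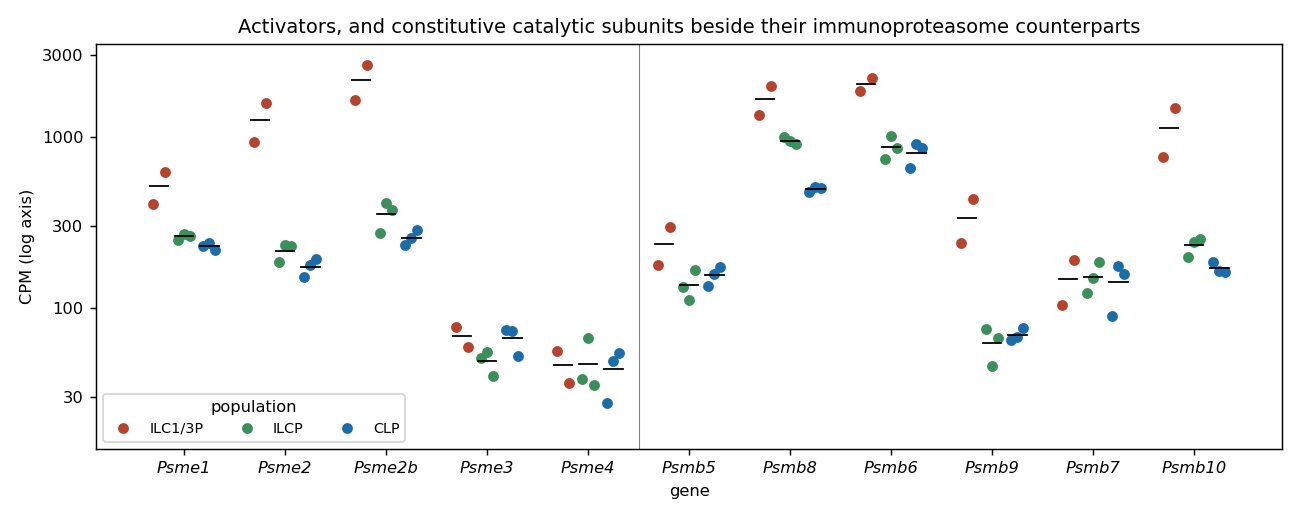
CPM on a log axis for the activators (left) and for the constitutive cutting subunits beside the immunoproteasome subunits that replace them (right), with points for libraries and bars for population means. Psme1, Psme2, Psme2b, Psmb6, Psmb8, Psmb9 and Psmb10 are highest in both ILC1/3P libraries, and Psme3, Psme4 and Psmb7 overlap between ILC1/3P and CLP.

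The immunoproteasome genes, which are not among the 42, are given beside them. Psmb8, Psmb9 and Psmb10 replace Psmb5, Psmb6 and Psmb7 in the assembled particle. All 3 rose in ILC1/3P. Psmb10 had 768 and 1479.7 CPM in ILC1/3P, 199, 244 and 254 CPM in ILCP, and 184, 165 and 163 CPM in CLP, with a log2 fold change of 2.72 ± 0.29 (SE, adjusted p = 8.14e-05) against CLP and 2.27 ± 0.28 (SE, adjusted p = 0.000646) against ILCP. Psmb9 had 239 and 435 CPM in ILC1/3P, 74.8, 45.7 and 66.3 CPM in ILCP, and 64.6, 67.5 and 76.3 CPM in CLP, with 2.28 ± 0.32 (SE, adjusted p = 0.000397) against CLP and 2.44 ± 0.32 (SE, adjusted p = 0.000834) against ILCP. Psmb8 had 1350.2 and 1989 CPM in ILC1/3P, 994, 951 and 915 CPM in ILCP, and 475, 508 and 501 CPM in CLP: it rose in ILC1/3P against both, at 1.76 ± 0.23 (SE, adjusted p = 0.000277) against CLP and 0.81 ± 0.23 (SE, adjusted p = 0.0340) against ILCP, and also in ILCP against CLP, at 0.95 ± 0.21 (SE, adjusted p = 0.0180). By library size alone the Psmb8 difference against ILCP was 0.15 (adjusted p = 0.619) and with limma 0.14 (adjusted p = 0.638), and its call was also lost in a fit of those 2 groups (adjusted p = 0.0608). The authors' FPKM of Psmb8 was 264 and 347 FPKM in ILC1/3P, 301, 259 and 263 FPKM in ILCP, and 152, 144 and 141 FPKM in CLP, overlapping between ILC1/3P and ILCP. Its calls against ILCP and of ILCP against CLP were each lost without several single libraries (highest adjusted p of 0.206 and 0.0796). The ratio of the summed FPKM of the 3 immunoproteasome genes to that of Psmb5, Psmb6 and Psmb7 was 1.19 and 1.59 in ILC1/3P, 1.01, 0.903 and 0.857 in ILCP, and 0.713, 0.522 and 0.521 in CLP, with no overlap between populations. By pair there was overlap. Psmb8 over Psmb5 overlapped between ILC1/3P (1.72 and 1.52) and ILCP (1.70, 1.93 and 1.24). Psmb9 over Psmb6 and Psmb10 over Psmb7 were highest in ILC1/3P but overlapped between ILCP and CLP. The size of the summed ratio also depends on the authors' lengths, such as 3107 bases for Psmb6, where the principal transcript has 798. Of 7 interferon-related genes listed, 6 were tested. In ILC1/3P against CLP 1 rose (Irf1) and 1 fell (Irf7), where 11.8% of all genes rose and 11.7% fell. Both calls were lost without several single libraries (highest adjusted p of 0.133 and 0.137). The summed level of the 7 genes was 391 and 301 CPM in ILC1/3P, 202, 91.5 and 166 CPM in ILCP, and 265, 194 and 199 CPM in CLP. Their part in the result was not tested.

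The 3 base chaperones bind the ATPases before the ring closes. Psmd10, known as gankyrin, had 490.0 and 402 CPM in ILC1/3P, 145, 276 and 185 CPM in ILCP, and 129.9, 142 and 232 CPM in CLP, with the ILC1/3P libraries the highest and log2 fold changes of 1.41 ± 0.33 (SE, adjusted p = 0.00914) against CLP and 1.14 ± 0.33 (SE, adjusted p = 0.0352) against ILCP. Against CLP leaving out ILC1/3P replicate 1 ended the call (adjusted p = 0.0512), and against ILCP without 5 of the libraries, 1 at a time: ILC1/3P replicates 1 and 2, ILCP replicates 1 and 3, and CLP replicate 2 (highest adjusted p = 0.141). Library size alone also ended both calls (adjusted p = 0.0914 against CLP and 0.246 against ILCP). Psmd9 was at 0.94 ± 0.35 (SE, adjusted p = 0.0757) against CLP and Psmd5 at -0.48 ± 0.41 (SE, adjusted p = 0.441). DESeq2 called Psmd9 higher against CLP (adjusted p = 0.0330). Psmc3ip, the recombination factor, was at 0.93 ± 0.38 (SE, adjusted p = 0.0993) against CLP and 1.12 ± 0.38 (SE, adjusted p = 0.0673) against ILCP, where DESeq2 called it higher (adjusted p = 0.0276).

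Other genes of the pathway were read from lists. The counts per list stand beside 11.8% of all genes higher and 11.7% lower in ILC1/3P against CLP, and 8.06% and 8.25% against ILCP. Of the core assembly chaperones and the inhibitor Psmf1, 6 were tested and 4 rose in ILC1/3P against CLP: Psmg2 by 1.50 on the log2 scale, Pomp, which helps the beta ring to form, by 1.84, Psmg4 by 1.72 and Psmf1 by 0.97. Against ILCP the first 3 rose, by 1.74, 1.45 and 1.64. Of 5 genes for proteins bound to the 19S particle, Shfm1, a small lid subunit, rose in both comparisons (1.51 against CLP and 1.37 against ILCP). The ubiquitin receptor Adrm1 fell (-1.01 and -1.22), as did the deubiquitinase Usp14 (-1.92 and -1.35). Of 5 transcription and processing factors, 0 rose and 1 fell: Ngly1, which trims sugars from Nfe2l1, fell by 1.95 against CLP and by 2.23 against ILCP on the log2 scale. Nfe2l1 itself was at 0.94 ± 0.83 (SE, adjusted p = 0.448) against CLP.

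Among 6 genes for ubiquitin and its activation, the polyubiquitin gene Ubb rose by 1.68 against CLP and 1.10 against ILCP, Uba6 fell by 1.57 against CLP, and Rps27a rose by 1.48 against ILCP. Of 8 shuttle and extraction factors, 0 rose, and Vcp, which pulls ubiquitin-bearing proteins from complexes, fell by 1.06 against CLP. The adjusted p of the pathway genes said here to rise or fall lay between 0.000421 and 0.0424. Over the 16 alternatives, the calls of Psmg2, Pomp, Shfm1, Usp14, Ngly1 and Ubb against CLP and of Psmg2, Shfm1 and Ngly1 against ILCP were not lost, and each of the other pathway calls was lost in at least 1. By library size alone these were Psmg4 and Psmf1 against CLP, and Pomp, Psmg4, Ubb and Rps27a against ILCP. Genes of cell division were higher in the same libraries: 8 genes such as Mki67 and Cdk1 summed to 4665 and 4156 CPM in ILC1/3P, 686, 658 and 772 CPM in ILCP, and 1026, 806 and 786 CPM in CLP, 5 rose and 1 fell in ILC1/3P against CLP, and 6 rose against ILCP. Their part in the proteasome result was not tested.

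No proteasome gene passed between ILCP and CLP. With 0 of 41 genes called by edgeR, 1 had an unadjusted p under 0.05, where 20.1% of all genes did, and DESeq2 and limma also called 0. The gene was Psmc2, with 392, 418 and 383 CPM in ILCP against 310.2, 254 and 297 CPM in CLP. Its libraries did not overlap, and its log2 fold change was 0.47 ± 0.20 (SE, adjusted p = 0.204), with a 95% interval from 0.04 to 0.90. The median log2 fold change of the 41 genes was 0.11, and 27 were above 0, as were 6762 of all 13436 genes tested. By groups the median was 0.09 in the 20S core, 0.21 in the 19S particle and 0.20 in the activators, beside 0.01 over all genes. In 6 genes all ILCP libraries lay above all CLP libraries and in 1, Psma8, below, where 14.1% and 14.0% of all genes did so.

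The difference of Psma8 was the largest, at -1.70 ± 0.97 (SE, adjusted p = 0.394). Psmb3 differed by 0.18 ± 0.27 (SE, adjusted p = 0.832), with a 95% interval from -0.42 to 0.78, Psmb6 by 0.11 ± 0.22 (SE, adjusted p = 0.884) and Psmb5 by -0.18 ± 0.26 (SE, adjusted p = 0.823). The activators Psme2 and Psme2b were at 0.31 ± 0.24 (SE, adjusted p = 0.584) and 0.45 ± 0.25 (SE, adjusted p = 0.352). For the 20S core the sign of the median depended on the libraries: it was -0.13 without CLP replicate 1 and -0.07 without ILCP replicate 2.

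Per length, subunits of the same particle were far apart in their RNA. By the authors' FPKM the 20S genes had medians of 255 in ILC1/3P, 174 in ILCP and 201 in CLP, and the 19S genes 59.2, 103 and 83.9 in the same order of populations. FPKM is scaled to the library total, so its differences between populations follow the library-size scaling. Psma2 was the highest 20S gene in every population, with 2615 FPKM in ILC1/3P, 1213 in ILCP and 1286 in CLP, and Psma8 the lowest. Among the 19S genes Psmd8 was the highest in ILCP and CLP (369.7 and 329.97 FPKM), Psmc6 in ILC1/3P (271 FPKM), and Psmd3 the lowest in each (1.46 FPKM in ILC1/3P, 3.04 in ILCP and 3.67 in CLP).

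These orders depend on the length assumed. The authors' FPKM and counts together imply a length of 944 bases for Psma2 and 7723 for Psmd3, where the principal transcripts have 2911 and 2148 bases. On principal lengths Psmb2 was the highest 20S gene in every population, at 5298, 1259 and 1123 CPM per kilobase in ILC1/3P, ILCP and CLP, and Psmd8 the highest and Psmd3 the lowest 19S gene in each. Over the 15 core genes the ranks on the 2 scales had a Spearman correlation of 0.83 in ILC1/3P, 0.71 in ILCP and 0.71 in CLP. This is across genes, which are no replicates, and both scales rest on the same counts.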

How the data were processed

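Bulk RNA-seq libraries of ILC1/3P (2), ILCP (3) and CLP (3) cells were analysed. Groups came from the sample titles. The authors deposited whole-number counts per gene and, beside them, FPKM values of their own. Per the submitters' processing notes the genome was mm10. Which aligner, counter, annotation and strand setting were used is not given in the sources used here.

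The test was edgeR 4.0.16, run in R 4.3.3: filterByExpr left 13436 of 34745 genes, libraries were scaled by TMM (factors of 0.753 and 0.671 in ILC1/3P, and 1.05 to 1.23 in ILCP and CLP), and a quasi-likelihood fit with 1 mean per group used all 8 libraries (5 residual and 6.49 median prior degrees of freedom). Adjusted p-values are Benjamini-Hochberg values over all genes tested, two-sided, and a gene with an adjusted p under 0.05 was called. Standard errors come from the F statistic. CPM is per TMM-scaled library, and floors cover counting error only. The FPKM values deposited by the authors were used for levels per length and, as log2(FPKM + 1), with limma 3.58.1. Alternatives were DESeq2 1.42.0, library-size scaling, no filter, a replicate block, fits of the compared groups only and leaving out each library. Offsets for length and GC content were chosen after the data were seen. Scripts were first tested on simulated data. Replicates of a group differed by more than sampling noise (chi-square per degree of freedom from 24.5 to 54.3).

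Lengths came from GENCODE M21, matched by identifier for all 42 genes, 32 of them at an identical locus. Exons of 12 overlap another gene, which makes their counts uncertain: Psmc3, Psmc3ip, Psmd1, Psmd3, Psmd9, Psmd13, Psma4, Psma5, Psmb5, Psmb7, Psme1 and Psme2b. Values per library are given for Psmb5, Psmb6 and Psmb7, the activators, up to 3 called genes per subcomplex and comparison with the smallest p, and genes that changed against the majority. Other pathway genes came from lists, up to 3 called genes per list being named, and Psmf1 beyond that rule. The genes and lists were chosen with earlier results of these data known. Paaf1, also listed, was not matched in the table.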

Additional observations from a re-analysis of the deposited data

How the results depend on the processing

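Without TMM, by library size alone, 11 proteasome genes rose and 9 fell in ILC1/3P against CLP (7.04% and 20.9% of all genes), and 7 rose and 9 fell against ILCP (3.53% and 15.9%). With limma on FPKM 8 fell against CLP (23.7% of all genes), and 9 rose and 9 fell against ILCP (4.93% and 17.7%). In a fit of the 2 compared groups, 1 fell against ILCP (6.61% of all genes). Between ILCP and CLP 0 proteasome genes were called in all 16 alternatives, where 2.60% to 6.47% of all genes were higher and 1.64% to 5.51% lower. Leaving out single libraries gave 14 to 16 higher and 2 lower against CLP (8.60% to 12.1% and 8.18% to 11.8% of all genes), and 11 to 15 higher and 0 to 3 lower against ILCP (4.79% to 8.02% and 5.08% to 9.02%). The difference between the 20S and 19S medians ran from 0.75 to 1.58 over 16 alternatives against CLP and from 1.12 to 1.75 against ILCP.

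Over the 16 alternatives the sign turned for 0 of the 17 genes called in ILC1/3P against CLP and 0 of the 16 against ILCP, and for 16 of 24, 13 of 25 and, in ILCP against CLP, 17 of 41 genes that were not called. The values that follow are for the 18 genes given per library. By library size alone the log2 fold changes against CLP became -0.0786 (Psmb5), -0.61 (Psmb7), -0.64 (Psme3) and -0.56 (Psme4), and Psme3 became -0.14 against ILCP. With limma they became -0.10, -0.60, -0.60 and -0.46 for the same 4 genes against CLP, and -0.14 for Psme3 against ILCP. The length offset gave -0.00420 (Psmb5) and -0.26 (Psmb7) against CLP, 0.11 (Psme4) against ILCP, and -0.0507 (Psma4) and -0.00336 (Psmb6) for ILCP against CLP. DESeq2 gave 0.0393 for Psmb7 and 0.0406 for Psme4 against ILCP, and the GC offset 0.11 and 0.14. The cause was not tested. Left-out libraries gave ranges across 0 in ILC1/3P against CLP for Psmb7 (-0.41 to 0.44), Psme3 (-0.17 to 0.22) and Psme4 (-0.26 to 0.38). Against ILCP they did so for Psmb7 (-0.51 to 0.32) and Psme4 (-0.37 to 0.36). In ILCP against CLP they did so for Psma2 (-0.26 to 0.0758), Psma4 (-0.16 to 0.22), Psmb1 (-0.0652 to 0.19), Psmb2 (-0.0964 to 0.39), Psmb3 (-0.0436 to 0.32), Psmb6 (-0.0195 to 0.22), Psmb7 (-0.13 to 0.30), Psmd10 (-0.0375 to 0.57) and Psme4 (-0.25 to 0.29).

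Whether replicate numbers pair the samples could not be settled. Between same-numbered ILCP and CLP libraries the deviations from group means correlated at 0.121, 0.0701 and -0.00492. Between libraries of different number they correlated at -0.126 to 0.0532. With the replicate block all 17 calls against CLP remained, where 10.4% of all genes rose and 9.17% fell (7.03% and 6.02% against ILCP). Against ILCP 15 of 16 remained, Psma8 being lost (adjusted p = 0.0612) and Psmc1 gained, and Psme3 became -0.11 against CLP, and Psmb7 0.0328 and Psme4 0.0571 against ILCP. ILC1/3P had 2 libraries, which limits what could be detected there.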
